A study of Mus musculus with 8 samples.

Results

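Chemokines and their receptors were followed as a gene family in whole mouse kidneys at embryonic day 14.5, in a comparison of mutant with wild-type RNA. The members were all genes on the array with a symbol that starts with Ccl, Ccr, Cxcl, Cxcr, Xcl, Xcr or Ackr and a number. There were 56 such genes, read by 71 probes, of 22911 named genes and 56605 probes in all. They comprised 21 CC ligands, 12 CXC ligands, 1 XC ligand (Xcl1), 18 receptors and 4 atypical receptors. A gene was tested when the scanner software called a probe of it well above background in 6 or more of a genotype's 8 channels. That held for 31 of the 56 members and for 16013 of all genes, each represented by its brightest such probe.

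In the mutant, Cre driven by Hoxb7 sequences removes Mdm4, an inhibitor of p53, from the ureteric bud and from the collecting ducts that grow out of it. Most cells of a whole kidney (nephron progenitors, stroma, vessels and resident leukocytes) lie outside that lineage and keep the gene. The controls were called wild type, with no word on their Cre status in the sources used here. RNA of 1 mutant and 1 wild-type sample made a pair, and each of the 4 pairs was hybridised on 2 2-colour arrays with the dyes exchanged. Single embryos and pools are not told apart in the labels, so a p-value speaks of the scatter among these 4 pairs, part of which may be technical.

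Chemokines are small secreted proteins that guide migrating cells through G protein-coupled receptors. The inflammatory ones are switched on in epithelium, endothelium and leukocytes, often by NF-kB, and call in neutrophils (Cxcl1, Cxcl2, Cxcl3 and Cxcl5 through Cxcr2) or monocytes (Ccl2 and Ccl12 through Ccr2). Cxcl12 and its receptor Cxcr4 act in development and are known for their part in forming the blood vessels of the embryonic kidney. Atypical receptors bind chemokines without classical signalling, and some of them clear the ligand, as Ackr3 does with Cxcl12.

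The sequences just before the start of 4 ligand genes are shown because Ccl20 and Cxcl1 had the largest single ratios of any tested member and Cxcl3 and Cxcl2 lie in the same cluster as Cxcl1 on chromosome 5. Each holds the 150 bases before the start in RefSeq's GRCm38.p6 annotation, on the plus strand, at chr1:83116616-83116765 for Ccl20, chr5:90891095-90891244 for Cxcl1, chr5:90785951-90786100 for Cxcl3 and chr5:90903749-90903898 for Cxcl2. Capitals mark matches to the NF-kB consensus on either strand, and overlapping matches run together.
Ccl20: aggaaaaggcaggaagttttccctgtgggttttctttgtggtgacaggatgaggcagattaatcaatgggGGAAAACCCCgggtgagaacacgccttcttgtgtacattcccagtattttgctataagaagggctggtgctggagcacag
Cxcl1: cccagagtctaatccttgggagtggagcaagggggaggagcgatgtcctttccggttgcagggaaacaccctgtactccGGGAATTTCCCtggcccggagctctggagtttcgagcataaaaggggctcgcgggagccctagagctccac
Cxcl3: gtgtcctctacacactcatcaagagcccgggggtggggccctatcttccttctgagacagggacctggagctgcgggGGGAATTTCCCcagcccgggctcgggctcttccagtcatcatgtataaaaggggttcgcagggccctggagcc
Cxcl2: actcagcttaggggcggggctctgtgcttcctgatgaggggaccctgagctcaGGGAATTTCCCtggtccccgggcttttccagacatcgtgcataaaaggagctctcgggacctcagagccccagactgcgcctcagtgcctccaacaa
Each of the 4 stretches held the consensus. Cxcl5, in the same cluster and with 5.80 in pair 4, had no promoter among those searched. Cxcl15 of that cluster is not shown either. In the 250 bases before a start, the consensus stood in 7.25% of all 32851 promoters of the table. The 42 members with a promoter there had 46 promoters, of which 11 held it. Counted by gene and not by promoter, that was 11 of the 42 members (26.2%). GGAATTTCC, which overlaps the consensus in Cxcl1, Cxcl2 and Cxcl3, was found on either strand in 0.286% of all promoters and in 5 members, the others being Cxcl10 and Ccr3. ATAAAAG, a form of the TATA box, stood on either strand in 4.83% of all promoters and in 13 members, Cxcl1, Cxcl2 and Cxcl3 among them. Cxcl1, Cxcl2 and Cxcl3 are close copies of 1 another, so their matches are not independent, and a match describes the letters and not a site in use.

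The pairs were not alike over all genes. Of the 16013 genes, 296 had a log2 ratio of at least 1.00 in size in pair 4, against 89 in pair 1, 44 in pair 2 and 76 in pair 3. Eif2s3y, a Y-linked gene, had log2 ratios of 3.91, 2.26, -2.02 and 4.09 in pairs 1 to 4, so the share of male RNA differed within each pair, with pair 3 the other way round. Mdm4 itself averaged -0.18 ± 0.07 on the log2 scale (SE, limma adjusted p = 0.471). Its probe may lie outside the deleted part, which the labels leave undefined, and the probe's position was not examined. Markers of the ureteric bud and collecting duct, the lineage of the Cre, had a median of -0.38, with 13 of 14 below 0. Of all genes tested, 53.9% had a mean above 0. In limma no gene passed an adjusted p of 0.05 (0% of genes tested); the smallest was 0.0750, and 10.6% of genes had an unadjusted p under 0.05. With all 8 arrays in 1 fit and the pair as a random block, 39 genes passed, and with median centring in place of loess 42 did, no chemokine or receptor gene among them in either case.

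Ligands sat above 0 and receptors around it. Ratios that follow are mutant over wild type on the log2 scale, errors are standard errors from limma over 4 pairs, and adjusted p-values run over all 16013 genes. Of the 21 ligands tested, 19 had a mean above 0, with a median of 0.27, whereas 5 of the 10 receptors and atypical receptors did, with a median of 0.01. Over all 31 members the median was 0.12 and 24 means were above 0, beside a median of 0.01 and 53.9% above 0 over all genes. The same sign in all 4 pairs was seen for 9 of 31 members (19.9% of all genes), 8 of them higher (12.1%) and 1 lower (7.84%). No member passed the adjusted threshold; 9 of 31 had an unadjusted p under 0.05, which were Ccl3, Ccl4, Ccl6, Ccl9, Ccl12, Cxcl10, Cxcl16 and Ccr2 on the higher side (7.01% of all genes) and Cxcr4 on the lower side (3.60%). In whole-kidney RNA, more cells of a type and more RNA per cell cannot be told apart for any of these genes.

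The size of the ligands' shift differed between pairs. Their median was 0.27, 0.06, 0.10 and 0.53 in pairs 1 to 4, and 0.14 for the means without pair 4. At least 0.50 higher in pair 4 were 11 members, all of them ligands (5.10% of all genes), against 1, 0 and 2 members in pairs 1 to 3 (1.54%, 0.631% and 1.70%). Without pair 4, 19 of the 21 ligands had a mean above 0 (51.7% of all genes); 18 ligands were above 0 in both cases, while Ccl5 went below 0 and Cxcl14 above it. In that fit 4 of 31 members had an unadjusted p under 0.05 (6.84% of all genes), namely Ccl3, Ccl4, Ccl6 and Cxcr4. For 4 tested members (Ccl3, Ccl28, Ccr2 and Cxcr3) the probe passed the detection rule through mutant channels alone, and for none through wild-type channels alone, so the counts over tested members lean towards higher values. Among the 21 members detected in all 16 channels, 17 had a mean above 0 (53.8% of the 14921 genes so detected) and 6 an unadjusted p under 0.05 (10.7%).

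**Figure D1:**
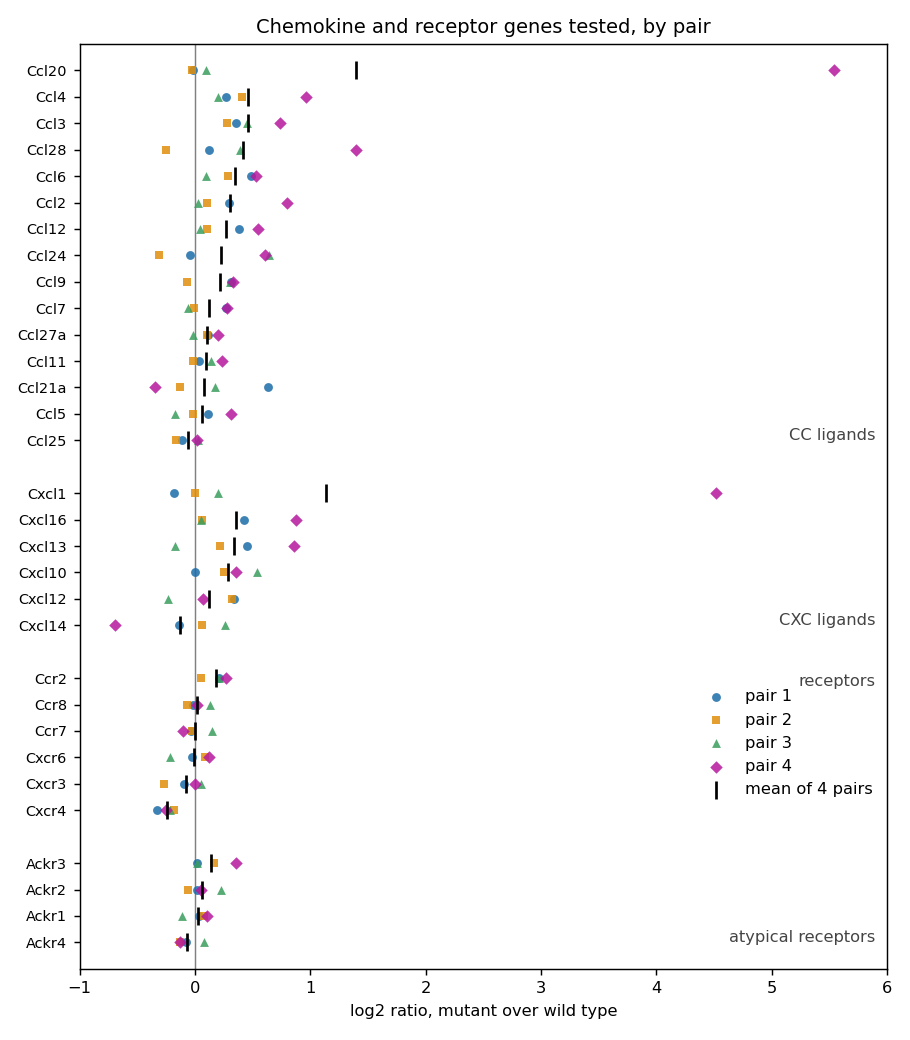
Log2 ratio of mutant over wild type (x axis) of the 31 tested members, 1 row each and grouped by role, with 1 marker for each of the 4 pairs (mean of 2 dye-swapped arrays) and a bar at their mean. Most ligand rows lie right of 0, Ccl20 and Cxcl1 have pair 4 at 5.53 and 4.51 with the other pairs near 0, and all 4 markers of Cxcr4 lie left of 0.

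Among the CC ligands, Ccl3 and Ccl4 were higher in mutant RNA on all 8 arrays. Both are macrophage inflammatory proteins that attract leukocytes, and they lie next to each other on chromosome 11. The normalised log2 intensity of Ccl3 was 7.17, 7.01, 7.06 and 7.50 in the mutant RNAs of pairs 1 to 4, against 6.81, 6.73, 6.60 and 6.76 in the wild-type RNAs. Every mutant level was above every wild-type level. Such a gap, in either direction, was seen for 4 of 31 members and 4.85% of all genes; the other members were Ccl2 and Ccl6, higher in mutant RNA, and Cxcr4, lower. The mean ratio of Ccl3 was 0.46 ± 0.09, or 1.37-fold (unadjusted p = 0.00169, limma adjusted p = 0.304), with 0.39 where mutant RNA was in Cy5 and 0.53 where it was in Cy3. Its signal was weak, with 8 of 8 mutant channels and 4 of 8 wild-type channels well above background.

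Ccl4 had levels of 7.49, 7.27, 7.12 and 8.19 in mutant RNA, against 7.22, 6.86, 6.92 and 7.23 in wild-type RNA. The groups overlapped, since the mutant of pair 3 lay below the wild types of pairs 1 and 4, but each mutant was above its own partner. Its ratio averaged 0.46 ± 0.13 (limma adjusted p = 0.406; 0.33 with mutant RNA in Cy5 and 0.59 in Cy3), and 0.29 without pair 4. A second probe of Ccl4 was well above background in all 8 mutant channels and in none of the wild-type channels, which gives a difference of at least 1.28-fold, taking for the dim side the higher of its own signal and the array's lowest detected signal. On all 8 arrays higher were these 2 of the 31 members, beside 3.35% of all genes.

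Ccl6 and Ccl9, mouse chemokines that act through Ccr1, gave stronger signals. Ccl6 levels were 8.56, 8.26, 8.13 and 8.54 in mutant RNA, against 8.07, 7.97, 8.03 and 8.01 in wild-type RNA, with no overlap. The 4 wild-type values had an SD of 0.04, and the mean ratio was 0.35 ± 0.09 (limma adjusted p = 0.397; 0.34 with mutant RNA in Cy5 and 0.36 in Cy3). Ccl9 had ratios of 0.31, -0.07, 0.30 and 0.33 in pairs 1 to 4 and a mean of 0.22 ± 0.08 (limma adjusted p = 0.453; 0.16 with mutant RNA in Cy5 and 0.28 in Cy3). It was higher in 3 of 4 pairs, and its levels of 7.81 to 8.38 in mutant RNA overlapped those of 7.49 to 8.08 in wild-type RNA.

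The ligands of Ccr2, the receptor that brings monocytes into tissue, lay on the same side. Ccl12, a mouse monocyte attractant, had ratios of 0.38, 0.10, 0.05 and 0.54 and a mean of 0.27 ± 0.10 (limma adjusted p = 0.442; 0.24 with mutant RNA in Cy5 and 0.29 in Cy3). Ccl2, the main monocyte attractant, had levels of 8.67, 8.45, 8.40 and 9.06 in mutant RNA, against 8.37, 8.35, 8.37 and 8.26 in wild-type RNA. Those of pairs 2 and 3 were nearly equal, and its mean of 0.30 ± 0.13 had an unadjusted p of 0.0580 (limma adjusted p = 0.483). Ccl7, which shares that receptor, averaged 0.12 ± 0.08.

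These CC genes form 2 runs on chromosome 11. In the run Ccl2, Ccl7, Ccl11, Ccl12, Ccl8 and Ccl1, the ratios in pair 4 were 0.80, 0.28, 0.23, 0.54, 0.02 and -0.03, the last 2 from probes that were well above background in no channel. In the run Ccl5, Ccl9, Ccl6, Ccl3 and Ccl4 they were 0.31, 0.33, 0.53, 0.74 and 0.96. The median ratio in pair 4 was 0.53 over all tested ligands, on any chromosome, and 0.03 over all genes tested. The order along the chromosome is given here as a description.

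**Figure D2:**
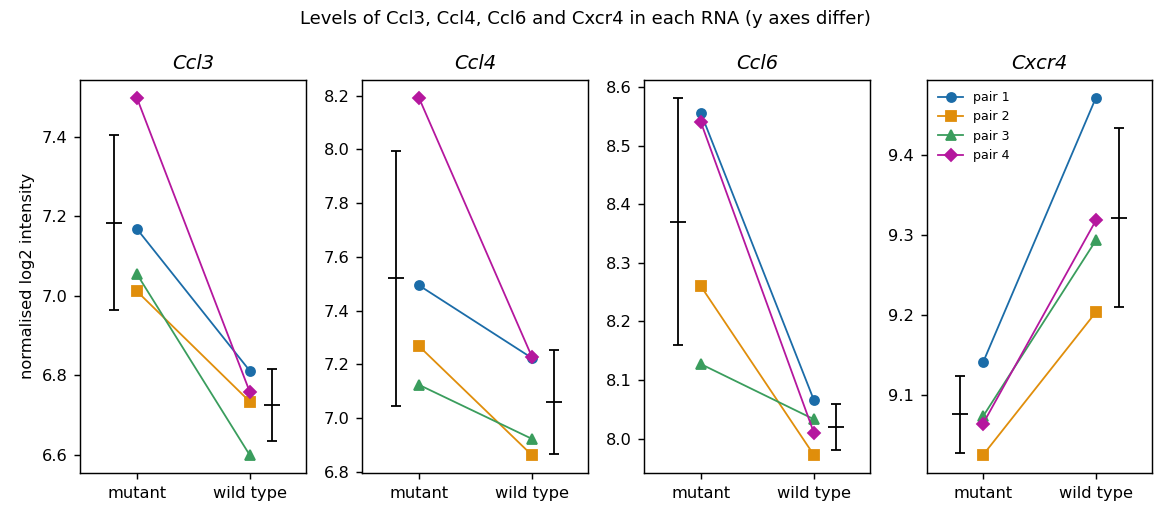
Normalised log2 intensity (y axes differ between panels) of Ccl3, Ccl4, Ccl6 and Cxcr4 in each RNA, mutant at left and wild type at right, with a line joining the 2 RNAs of a pair and bars for mean ± SD of 4. Lines slope down to wild type for the 3 ligands in every pair and up for Cxcr4, and the mutant and wild-type levels do not overlap for Ccl3, Ccl6 and Cxcr4.

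Ccl20 and Cxcl1 stood apart in pair 4. In 3 of 31 tested members 1 pair lay far from the other 3 (6.31% of all genes), and for Ccl20 and Cxcl1 it was pair 4. Ccl20, the ligand of Ccr6, had levels of 6.94, 6.93, 6.98 and 12.99 in mutant RNA, against 6.96, 6.96, 6.88 and 7.45 in wild-type RNA. The mutant of pair 4 was thus 46.4-fold above its partner, the highest ratio of all 16013 genes in that pair, while the other pairs lay between -0.03 and 0.10. Both arrays of pair 4 gave it, at 5.26 with mutant RNA in Cy5 and 5.81 in Cy3. The mean of 1.40 ± 0.96 (limma adjusted p = 0.617; 1.24 with mutant RNA in Cy5 and 1.55 in Cy3) was 0.02 without pair 4.

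Cxcl1, a neutrophil attractant made by epithelium and stroma, followed the same course. Its levels were 7.51, 7.60, 7.58 and 13.89 in mutant RNA, against 7.69, 7.59, 7.39 and 9.38 in wild-type RNA. Pair 4 was 22.8-fold higher in the mutant, ranked 3 of all genes in that pair. The wild-type RNA of pair 4 was also above the 3 other wild types. That held for Ccl20 too and, though not well above background, for Cxcl5. The mean of Cxcl1, 1.13 ± 0.79 (limma adjusted p = 0.621, 1.04 with mutant RNA in Cy5 and 1.22 in Cy3), was 0.01 without pair 4.

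Cxcl5 and Cxcl3, neutrophil attractants on the same stretch of chromosome 5, were not tested because they were well above background only in the 2 mutant channels of pair 4. Cxcl5 levels were 6.54, 6.55, 6.51 and 12.55 in mutant RNA, against 6.53, 6.52, 6.52 and 6.76 in wild-type RNA, and its difference in pair 4 was at least 55.5-fold. Cxcl3 had ratios of -0.06, -0.04, -0.02 and 1.11, and was at least 2.15-fold higher in pair 4. In pairs 1 to 3 neither genotype was well above background for these genes, so no fold is given there. The cluster did not move as a block. In the order Cxcl5, Cxcl3, Cxcl15, Cxcl1 and Cxcl2, the ratios in pair 4 were 5.80, 1.11, -0.03, 4.51 and 0.16, with Cxcl15 well above background in no channel and Cxcl2 in 1 mutant channel.

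Ccl28, a mucosal epithelial chemokine that binds Ccr10 and Ccr3, had ratios of 0.12, -0.25, 0.39 and 1.39. Its levels in mutant RNA were 6.73, 7.04, 7.01 and 8.34, against 6.60, 7.28, 6.62 and 6.95 in wild-type RNA, so pair 2 ran the other way. The mean was 0.41 ± 0.25 (limma adjusted p = 0.576; 0.30 with mutant RNA in Cy5 and 0.53 in Cy3), and 0.09 without pair 4. A dimmer probe of Ccl28 had 0.63 in pair 4 and at most 0.03 in the others. At least 1.00 higher in pair 4 were 3 of 31 tested members (0.881% of all genes), namely Ccl20, Cxcl1 and Ccl28; in pairs 1 to 3 there was none (0.325%, 0.0812% and 0.194%).

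**Figure D3:**
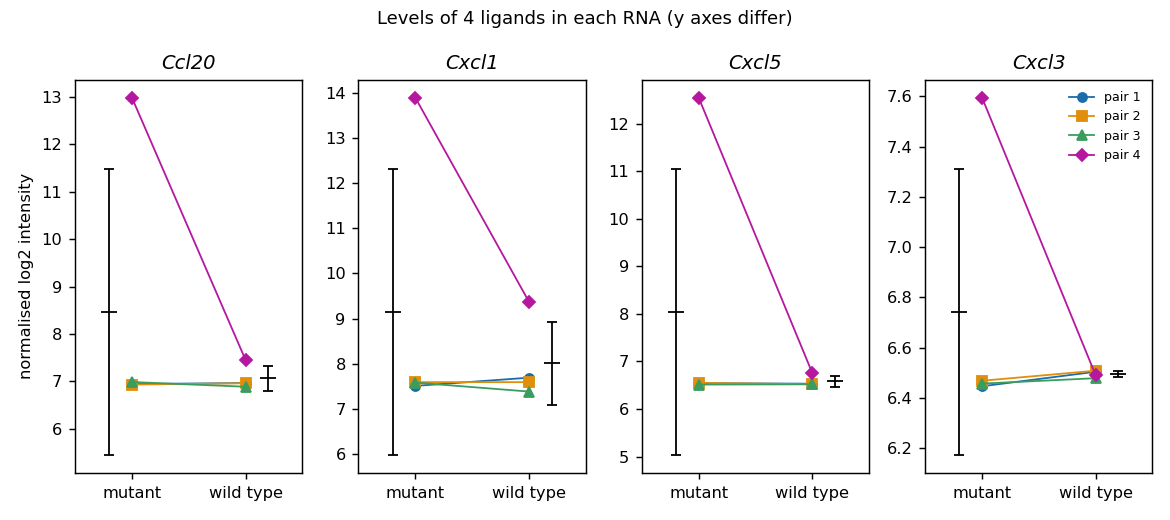
Normalised log2 intensity (y axes differ between panels) of Ccl20, Cxcl1, Cxcl5 and Cxcl3 in each RNA, mutant at left and wild type at right, with a line for each pair and bars for mean ± SD of 4. The mutant RNA of pair 4 stands alone at 12.99, 13.89, 12.55 and 7.60, and the other lines are nearly flat.

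The receptors of these ligands gave little signal. Cxcr2, the receptor of Cxcl1 and Cxcl5 on neutrophils, was well above background in 1 mutant channel, that of pair 4, where its ratio was 0.27. Ccr6, the receptor of Ccl20, was detected in 3 mutant and 2 wild-type channels, with 0.13 in pair 4. Ccr10 was detected in 4 channels of each genotype, and Cxcr1 in none.

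Of the other CXC ligands, Cxcl10 and Cxcl16 had an unadjusted p under 0.05. Cxcl10, an interferon-induced ligand of Cxcr3, had levels of 7.27, 7.59, 7.57 and 7.56 in mutant RNA, against 7.27, 7.34, 7.03 and 7.20 in wild-type RNA. Pair 1 did not differ, and the mean was 0.29 ± 0.09 (limma adjusted p = 0.425; 0.32 with mutant RNA in Cy5 and 0.26 in Cy3). Cxcl16, a membrane-bound ligand of Cxcr6, had levels of 8.06, 7.68, 7.63 and 8.52 in mutant RNA, against 7.64, 7.62, 7.58 and 7.64 in wild-type RNA. Pairs 1 and 4 carried the difference, with a mean of 0.35 ± 0.15 (limma adjusted p = 0.470; 0.46 with mutant RNA in Cy5 and 0.24 in Cy3) and 0.18 without pair 4. Its second probe gave 0.13, 0.03, 0.23 and 0.93.

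For weak probes the size of a ratio depended on the processing. Without background correction the means were 0.64 for Ccl3 and 0.33 for Ccr2. With the scanner software's own processed ratios, which differ in background, offset and dye normalisation at once, they were 1.44 for Ccl3, 1.11 for Ccl4, 1.12 for Ccl28, 0.61 for Ccl12, 0.71 for Cxcl10, 0.60 for Cxcl16 and 0.76 for Ccr2, and none of them passed the adjusted threshold.

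Cxcl12, its receptor Cxcr4 and its scavenger Ackr3 were given whatever their values, as the axis best known in the embryonic kidney. Cxcl12 levels were 15.01, 14.48, 14.42 and 14.53 in mutant RNA, against 14.67, 14.16, 14.65 and 14.46 in wild-type RNA. It was higher in pairs 1 and 2, lower in pair 3 and close to its partner in pair 4, for a mean of 0.12 ± 0.11 (limma adjusted p = 0.682; 0.02 with mutant RNA in Cy5 and 0.23 in Cy3). A second probe, designed on another transcript, gave 0.34, -0.02, -0.14 and 0.53. Both probes thus had pair 1 well above 0 and pair 3 below it, and differed in pairs 2 and 4.

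Cxcr4 was the only tested member that was lower in mutant RNA on all 8 arrays (1.31% of all genes). Its levels were 9.14, 9.02, 9.07 and 9.06 in mutant RNA, against 9.47, 9.20, 9.29 and 9.32 in wild-type RNA, without overlap. The mean ratio of -0.25 ± 0.06 corresponds to 0.843-fold (unadjusted p = 0.00418, limma adjusted p = 0.367; -0.17 with mutant RNA in Cy5 and -0.33 in Cy3). This probe had ratios of -0.33, -0.18, -0.22 and -0.25 in pairs 1 to 4. Unlike the ligands' median, it was thus largest in size in pair 1, and its mean was -0.24 without pair 4. With median centring in place of loess it was -0.14 (unadjusted p = 0.149), a setting that put the median over all genes tested at 0.14. The second probe gave -0.23, -0.04, -0.04 and -0.47, with a mean of -0.19, so its largest ratio did fall in pair 4.

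Ackr3 had levels of 14.04, 13.90, 13.90 and 14.09 in mutant RNA, against 14.02, 13.74, 13.88 and 13.74 in wild-type RNA. Its mean of 0.14 ± 0.08 (limma adjusted p = 0.554) came from the arrays with mutant RNA in Cy5, at 0.27, with 0.01 in Cy3. The other atypical receptors, Ackr1 on red cells and endothelium, Ackr2 and Ackr4, were all detected and averaged between -0.07 and 0.06.

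Ccr2, the monocyte receptor, was the 1 conventional receptor with a higher value at an unadjusted p under 0.05. Its levels were 7.20, 6.99, 6.95 and 6.99 in mutant RNA, against 6.99, 6.94, 6.74 and 6.72 in wild-type RNA. Each mutant was above its partner, the groups overlapped, and the mean was 0.18 ± 0.06 (limma adjusted p = 0.425; 0.20 with mutant RNA in Cy5 and 0.17 in Cy3). It was well above background in 8 mutant and 5 wild-type channels, and with median centring its mean was 0.15 (unadjusted p = 0.118). Among the lymphocyte receptors, Cxcr3 had a mean of -0.08 ± 0.07 and Ccr7 one of 0.00 ± 0.06, and Ccr8 and Cxcr6 lay as close to 0.

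The 17 tested members not given in full had means between -0.13 and 0.34 and limma adjusted p-values between 0.483 and 0.991. Cxcl13, a B-cell attractant, had ratios of 0.45, 0.22, -0.17 and 0.85. Ccl24, an eosinophil attractant, had -0.04, -0.31, 0.64 and 0.61. Both were thus above 0 on average (0.34 ± 0.16 and 0.22 ± 0.17), with at least 1 pair below. Ccl21a, a lymphatic ligand of Ccr7, had 0.63 in pair 1 and -0.35 in pair 4. Its probe may also read the near-identical Ccl21 copies of the mouse genome, which was not examined. Cxcl14, an epithelial and stromal chemokine, had -0.13, 0.06, 0.26 and -0.69, the lowest ratio of any tested member. Ccl5 averaged 0.06 ± 0.09. The ligands of this set not yet named were Ccl25 and Ccl27a.

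Detection was counted by genotype, as a description with no test. Over the 71 probes, 60.2% of mutant channels and 53.9% of wild-type channels were well above background, beside 63.8% and 62.7% over all probes. More mutant than wild-type channels were detected for 18 probes, the reverse for 0 and equal numbers for 53, beside 10.3% and 5.67% of all probes on the mutant and wild-type side. By the scanner's looser flag for a significant positive signal, 15 probes lay on the mutant side and 4 on the wild-type side (13.2% and 7.91% of all probes). Without pair 4 the shares were 59.6% in mutant and 53.1% in wild-type channels, with 15 probes on the mutant side and 0 on the wild-type side (10.7% and 3.02% of all probes). Tested were 4 of 4 atypical receptors, 15 of 21 CC ligands, 6 of 12 CXC ligands and 6 of 18 receptors.

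Of the 25 members not tested, 11 were seen in some channels, among them Ccl17, Ccl19, Cxcl2, Cxcl3, Cxcl5, Ccr6, Ccr10 and Cxcr2. In no channel were 14 seen: Ccl1, Ccl8, Ccl22, Ccl26, Cxcl9, Cxcl15, Cxcl17, Xcl1, Ccr1, Ccr1l1, Ccr4, Cxcr1, Cxcr5 and Xcr1. Apart from Cxcl5 and Cxcl3, their ratios ran from -0.20 to 0.27 in the 4 pairs. Not well above background means only that these probes gave no usable signal in whole kidney RNA, and cells too few to show could still express the gene.

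**Figure D4:**
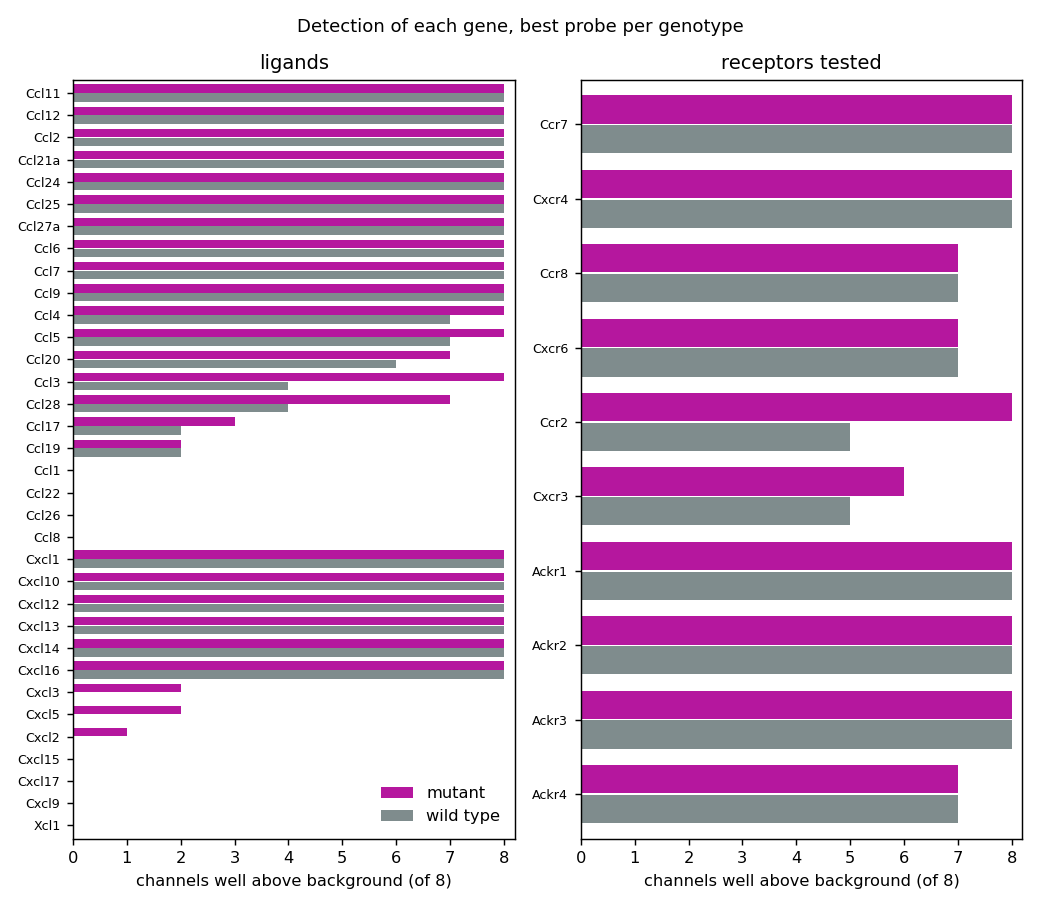
Number of channels well above background, of 8 for each genotype (x axis), for the best probe of each ligand at left and of the 10 tested receptors and atypical receptors at right, with the mutant bar above the wild-type bar. Where the bars differ, as for Ccl3 (8 and 4), Ccl28 (7 and 4), Ccr2 (8 and 5) and Cxcl5 (2 and 0), the mutant bar is the longer one.

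Markers of leukocytes that make chemokines or answer to them were measured on the same arrays. Of 16 macrophage markers tested, 15 had a mean above 0 (53.9% of all genes). Higher at an unadjusted p under 0.05 were 8 (7.01% of all genes). The markers had a median of 0.26 and pair medians of 0.43, 0.03, 0.17 and 0.36. Their summed linear intensity was 17636 to 23833 in mutant RNA and 15497 to 18472 in wild-type RNA, and Cd163 was well above background in no channel. Ctss, a lysosomal protease, averaged 0.38 ± 0.07, Tyrobp, a signalling adaptor, 0.34 ± 0.09, and Adgre1, a macrophage surface protein, 0.35 ± 0.14. Csf1r and Cd68 averaged 0.19 ± 0.10 and 0.06 ± 0.09. Like the ligands, these markers had their lowest median in pair 2, but their highest was in pair 1 and not in pair 4.

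Of 14 neutrophil markers, 8 were tested and 6 of these were above 0 (53.9% of all genes). The 8 had a median of 0.27, with pair medians of 0.26, 0.29, 0.13 and 0.12, the lowest in pair 4. Their summed intensity was 33932 to 69881 in mutant RNA and 34084 to 62815 in wild-type RNA. Csf3r, at mean log2 levels of 15.30 in mutant and 15.41 in wild-type RNA, was by far the brightest and made up most of that sum. S100a9, a calcium-binding protein of neutrophils, had ratios of 1.01, 0.56, 0.71 and 3.88, so that its largest value fell in the pair with high Cxcl1 and Ccl20. Mpo and Mmp9, a granule enzyme and a secreted protease, averaged 0.28 ± 0.08 and 0.26 ± 0.06 and had 0.03 and 0.21 in pair 4. Of markers chosen after their values were seen, S100a8, the partner of S100a9, and Lcn2 had 3.04 and 2.07 in pair 4, and Ltf, which was not tested, 3.88. The tested markers Camp and Csf3r had -0.01 and -0.09 there. Elane, a neutrophil protease, was below 0 in all 4 pairs, with a mean of -0.15 ± 0.06. Ngp was well above background in no channel. Lymphoid markers had a median of -0.01, with 5 of 15 tested, a summed intensity of 2337 to 3453 in mutant RNA and 2598 to 3887 in wild-type RNA, and Cd3g, Cd8a, Ncr1 and Rag1 detected in no channel. Cd3e, a chain of the T-cell receptor complex, was below 0 in all 4 pairs, with a mean of -0.33 ± 0.08 (unadjusted p = 0.00436, limma adjusted p = 0.373). Medians of the other lists were 0.37 for stroma, 0.32 for podocytes, 0.02 for nephron progenitors, 0.01 for endothelium and 0.00 for megakaryocytes and platelets. Pair medians were 0.42, 0.26, 0.14 and 0.47 for stroma and 0.10, 0.15, 0.40 and 0.52 for podocytes. Both were highest in pair 4, as the ligands' median was, while that of endothelium was lowest there at -0.10. Neither the part of these cells nor that of the sex difference in the members' ratios was tested.

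Genes that act with chemokines or upstream of them were described from lists. NF-kB target genes other than chemokines had 18 of 21 means above 0 (53.9% of all genes). Their median was 0.13, with pair medians of 0.02, 0.00, 0.13 and 0.24. Tnfaip2, Csf1 and Ptgs2, the 3 with the smallest p, had 0.58, 0.72 and 0.99 in pair 4 and means of 0.30 ± 0.08, 0.31 ± 0.11 and 0.40 ± 0.15. The 3 with a mean below 0, Traf1, Nfkbib and Nfkb1, had -0.33, -0.51 and -0.14 in pair 4. Il1b, an inflammatory cytokine chosen after its values were seen, was not tested and had 2.16 in pair 4 against -0.16, 0.13 and 0.19 in pairs 1 to 3; a second probe gave 0.91 in pair 4. The list's median, like those of the ligands, stroma and podocytes, was highest in pair 4.

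Interferon-gamma target genes, a class to which Cxcl10 also belongs, had 17 of 18 means above 0 (53.9% of all genes), with a median of 0.16. Of them, 8 were higher at an unadjusted p under 0.05 (7.01% of all genes). Iigp1, a GTPase of cell-autonomous defence, averaged 0.51 ± 0.10, and Tap1, the peptide transporter, 0.33 ± 0.06, both higher on all 8 arrays. Chemokine signalling partners (G proteins, arrestins, kinases and the Cx3c pair) had 27 of 46 means above 0 (53.9% of all genes) and a median of 0.04. At an unadjusted p under 0.05, 7 were higher and 2 lower (7.01% and 3.60% of all genes). Cx3cr1, a receptor of macrophages, averaged 0.36 ± 0.12, and its ligand Cx3cl1 -0.09 ± 0.08. No gene of any list passed the adjusted threshold in limma.

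**Figure D5:**
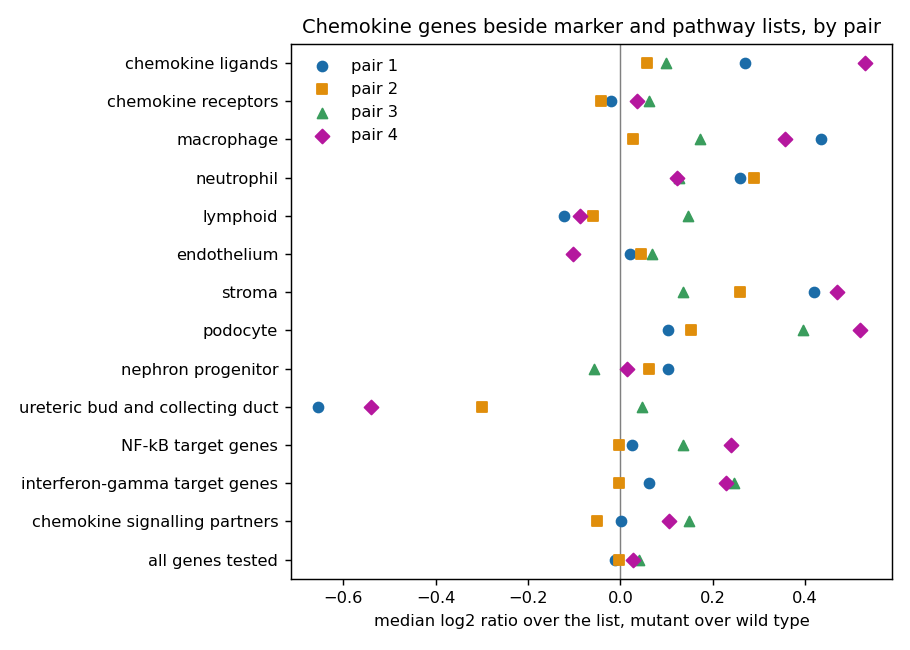
Median log2 ratio of mutant over wild type (x axis) of the chemokine ligands, the receptors with the atypical receptors, 11 marker and pathway lists and all genes tested, with 1 marker for each pair. Ligands reach 0.53 and podocyte markers 0.52 in pair 4, macrophage markers 0.43 in pair 1, and ureteric bud markers lie below 0 in 3 of 4 pairs.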

How the data were processed

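Per the labels, cRNA was made from 100 ng of total RNA, labelled with Cy3 or Cy5 and hybridised as 4 pairs with reversed labelling. The files were deposited by the authors as the scanner software wrote them. They give, per channel, the median intensity of a spot and its background, the processed signals, the log10 ratio of Cy5 over Cy3 and the detection flags, per the file headers. The deposited series table holds the same log10 ratios. The submitters' processing notes name Feature Extraction 8.5.1.1 and the file headers 10.7.3.1. All arrays lay on 1 slide, no spot of any array was saturated (0), and the number of arrays limits the precision.

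Intensities were corrected in limma 3.58.1 (R 4.3.3) by normexp with an offset of 50 and normalised by loess within each array; levels come from between-array scaling of the average intensity. The plan had assumed mean signals, and the files gave medians. Each array lost 3671 control spots and 95 to 156 outlier spots; ratios were turned to mutant over wild type and averaged over a pair's dye swap, which gives n = 4. Probes were named through their accession in RefSeq's GRCm38.p6 annotation (32994 of 56605, 58.3%). Probes well above background in 6 of 8 channels of a genotype (34594) were kept, and the brightest per gene was tested with lmFit and eBayes, two-sided, with Benjamini-Hochberg adjustment and a threshold of 0.05. Only the limma step was tested on simulated pair values. The arrays of a pair hold the same 2 RNAs per the labels, and their deviations correlated at 0.66, 0.63, 0.86 and 0.77.

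Members and gene lists were chosen with earlier results of these data known. Full values are given for tested members with an unadjusted p under 0.05, the same sign on all 8 arrays, a mean of at least 0.50 or a pair of at least 1.00 in size, and for Cxcl12, Cxcr4 and Ackr3. Of other tested members up to 10 get values in the results, and of each list up to 3 genes with the smallest p and a few set markers. Of 65 such genes in the annotation, 9 had no probe matched by accession (Cxcl11, Ccl27b and copies or pseudogenes of Ccl16, Ccl19 and Ccl21). The values of 1 untested member are not reported here.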

Additional observations from a re-analysis of the deposited data

Results flagged for a closer look

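In 3 of the 31 tested members, 1 of the 4 pairs lay far from the other 3, by a test of the gap against the range that flags about 1 in 20 groups by chance and 6.31% of all genes tested here. They were Ccl20 with 5.53 in pair 4, Cxcl1 with 4.51 in pair 4 and Ccl9 with -0.071 in pair 2, where its other pairs lay between 0.30 and 0.33.

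A signal above the wild-type level appeared in 2 genes that the detection rule had left out of the test. Cxcl5 had a log2 ratio of 5.80 in pair 4 and Cxcl3 one of 1.11, each with both mutant channels of that pair well above background and no wild-type channel.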

How the results depend on the processing

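Results were recomputed with median centring, without background correction, with the scanner software's ratios, with the deposited table, with other filters and probe rules, with 1 dye orientation, with a block, without each pair and, an alternative chosen after seeing the data, with each pair centred on the genes tested. Median centring called 42 genes, all higher and none a member, and gave a members' median of 0.26, beside 0.14 over all genes, and 14 members with 1 sign in all pairs (32.9% of all genes). The fit with the pair as a random replicate block called 39 genes, 38 of them higher and none a member, the nearest being Ccl3 at a limma adjusted p of 0.0903; it changed no call of a member. Leaving out 1 pair at a time called 0 genes and gave members' medians of 0.07 to 0.18; 9 to 15 members had 1 sign in the 3 pairs left, 9 of 31 without pair 4 (28.7% of all genes) and 15 without pair 3 (34.7%). None of the 14 members given in full changed sign, though Cxcr4 and Ccr2 had an unadjusted p of 0.149 and 0.118 with median centring. Signs did change for members near 0: with median centring Ccl25 (0.075), Ccr8 (-0.023) and Cxcl14 (0.040); without background correction Cxcr6 (0.0052); with mutant RNA in Cy5 alone Ackr1 (-0.075), Ackr4 (0.13), Ccl11 (-0.0089), Ccl25 (0.041) and Ccr8 (-0.071); with it in Cy3 alone Ccl27a (-0.11), Ccr7 (0.068) and Cxcr6 (0.0045). Leaving out 1 pair gave -2.6e-05 to 0.074 for Ackr1, -0.10 to 0.23 for Ccl21a, -0.026 to 0.14 for Ccl5, -0.053 to 0.030 for Ccr7, -0.022 to 0.043 for Ccr8, -0.26 to 0.061 for Cxcl14 and -0.050 to 0.063 for Cxcr6. The causes were not tested. With the scanner's looser flag for a significant positive signal, 40 members in place of 31 passed the detection rule. Signal near background limits what can be said of the 25 members not tested.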
